A study of Mus musculus with 6 samples.

Results

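Transcripts of 35 genes of the mitochondrial protein import machinery were followed in brown adipose tissue (BAT) of wild-type and Letmd1 knockout (KO) mice. The genes were taken by symbol from a list of the translocases of the outer and inner membrane, the chaperones and oxidases of the intermembrane space, the import motor and the processing peptidases. All 35 were found among the 23282 rows of the count files, none was at 0, and all 35 passed the filter on low counts that left 12995 genes for testing. The study collected the whole interscapular BAT depot of 5-week-old male C57BL/6N mice, 3 of them wild type and 3 with the Letmd1 KO. According to the study's methods, the null allele came from a single embryonic stem cell clone that carries a knockout-first cassette in an intron of Letmd1, so the gene is disrupted in all cells of the mouse and not only in brown adipocytes. LETMD1 is a protein of the mitochondrial matrix, and the comparison asks which transcripts differ in BAT that lacks it. RNA was sequenced from the 3′ end with QuantSeq, so a count does not scale with transcript length.

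Nearly all mitochondrial proteins are encoded in the nucleus, made in the cytosol and brought in through a chain of membrane complexes. The translocase of the outer membrane (TOM) is the common entry gate. From there, proteins with a cleavable presequence pass the TIM23 complex of the inner membrane and are pulled into the matrix by a motor built on a mitochondrial Hsp70, carrier proteins such as UCP1 are guided by small TIM chaperones to the TIM22 complex, barrel proteins are placed in the outer membrane by the sorting and assembly machinery (SAM), and small cysteine-rich proteins are trapped by a disulfide relay. Brown adipocytes are packed with mitochondria and depend on this supply for their respiratory chain and for UCP1.

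The libraries held between 6669577 and 14574273 counts. Levels are given as CPM, counts per 1000000 counts after TMM scaling, which corrects library sizes for differences in composition, and a floor of 3 counts lay between 0.176 and 0.397 CPM (counting error only). Letmd1 had 5266 to 6490 counts in the wild-type mice and at most 1 in the KO mice, matching the labels. The 10 markers listed for brown adipocytes, several of them general adipocyte genes, were present in all mice. Ucp1 was at 6328 CPM on average in wild-type and 382 in KO BAT. Of the 10 markers 8 were lower in KO BAT, while Pparg and Ebf2 had log2 fold changes of -0.18 and 0.02 and did not pass. The summed level of the 10 was 42660 to 48570 CPM in wild-type and 14370 to 17950 in KO mice. Fabp4 alone held 28020 CPM on average in wild-type and 10462 in KO BAT. All 10 macrophage markers were higher in KO BAT, with summed levels of 170 to 238 CPM against 1348 to 3221. Endothelial markers summed to 690 to 768 CPM in wild-type and 413 to 551 in KO BAT, with 4 of 8 lower. Skeletal muscle markers were uneven, with sums of 2.91 to 320 CPM in wild-type and 249 to 979 in KO BAT, and 2 of the 10 were higher. These counts of markers stand beside 22.3% lower and 23.7% higher among all genes tested. The count for muscle was not above that share. No marker of these lists was at 0 in all mice of a genotype. In whole tissue, fewer cells of a type and less RNA per cell cannot be told apart, and the part of these cell type markers in the results was not tested. The muscle level was low in wild-type replicates 1 and 3 and high in the other mice. A fit with it as a covariate, given below, therefore separates muscle poorly from genotype.

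Of the 35 import genes, 33 were lower in Letmd1 KO BAT and 1, Grpel2, was higher at an adjusted p under 0.05 (quasi-likelihood test of edgeR, Benjamini-Hochberg adjusted over all genes tested). Among all genes tested, 22.3% were lower and 23.7% were higher. For these 33 genes, every KO mouse lay below every wild-type mouse, a separation that 27.2% of all genes showed. Their log2 fold changes lay between -1.74 and -0.36, and the median over all 35 was -0.69, beside a median of 0.03 over all genes tested. Summed over the 35 genes, the level was 5162, 5217 and 5346 CPM in the wild-type mice and 2988, 2924 and 3139 CPM in the KO mice. The wild-type sums stood close together, as did the KO sums, and KO BAT held 57.6% of the wild-type sum. The genotypes differed in their TMM factors (0.852 to 0.886 in wild type, 1.135 to 1.168 in KO), and this bears on every single-gene direction here. Scaled by library size alone, the median of all genes rose to 0.45, 16 of the 35 were lower and 2 were higher, the median of the 35 was -0.27, and the KO sum was 77.0% of the wild type's. That scaling called 1368 of all genes lower and 5899 higher, and the share of higher genes among the calls went from 51.6% to 81.2%. Set against all genes, the median difference of the 35 was -0.73 under both scalings. Each of these scalings applies a common factor to all genes of a library, so this difference could hardly move between them. Under quantile normalization the difference was -0.51. By each of these scalings, 33 of 35 lay below the median of all genes. With the muscle marker level of each mouse as a covariate, 28 were lower and the median was -0.75. That fit called 1719 of all genes lower, against 2896 without the covariate.

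The calls as lower that depended on such a choice were the following. With library size alone, Tomm20, Mtx1 and Timm17b turned to above 0, and the calls of 14 further genes were lost (Tomm22, Tomm70a, Tomm40, Tomm5, Mtx2, Mtx3, Timm8a1, Timm10, Chchd4, Gfer, Timm17a, Pmpca, Pmpcb and Immp1l). Under quantile normalization, Tomm20, Tomm40, Gfer, Timm17b and Pmpcb did not pass. With the muscle covariate, Tomm20, Mtx1, Gfer, Timm22 and Timm17b did not pass.

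**Figure D1:**
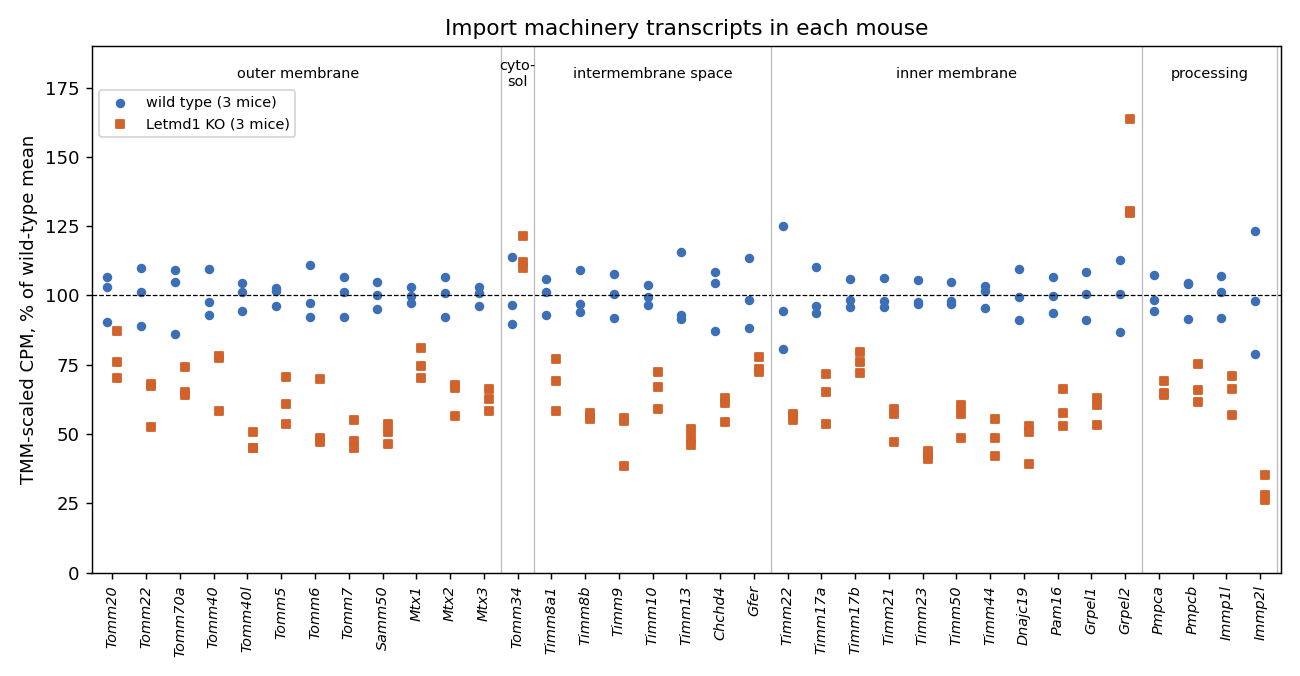
Level of each of the 35 import genes in every mouse, as a percentage of its wild-type mean (TMM-scaled CPM; circles, 3 wild-type mice; squares, 3 Letmd1 KO mice), ordered by where the protein works. KO mice sat between 26.1% and 87.2% of the wild-type mean for the 33 lower genes, Grpel2 sat above it in all KO mice and Tomm34 overlapped; with library size alone Tomm20, Mtx1 and Timm17b turned to just above 0 on the log2 scale.

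At the outer membrane, 12 of 12 genes were lower, with log2 fold changes from -1.09 to -0.36 and a median of -0.68. The receptors of the TOM complex, which read the targeting signals, had the smallest median of the outer membrane groups, -0.56. Tomm20, the receptor for presequences, had 87.6, 84.8 and 74.3 CPM in the wild-type mice and 71.8, 62.6 and 57.7 CPM in the KO mice. The highest KO mouse lay just under the lowest wild-type mouse. The log2 fold change of Tomm20 was -0.36 (SE 0.12, adjusted p = 0.0361 from edgeR), and with library size alone it was 0.06. Nor did Tomm20 pass under quantile normalization (-0.22), with the muscle covariate (-0.37) or among genes with a mean of at least 50 counts (-0.31). It no longer passed when wild-type replicate 1 (-0.32) or 2 (-0.36), or among the KO mice replicate 2 (-0.35) or 3 (-0.29), was left out. Tomm22, the central receptor that also holds the complex together, fell from 137 ± 14.5 to 85.5 ± 12.1 CPM (SD, n = 3 each), a log2 fold change of -0.67. Tomm70a, the receptor that takes carrier precursors from cytosolic chaperones, fell from 162 ± 19.9 to 110 ± 9.08 CPM (SD, n = 3 each).

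The pore of the TOM complex is the barrel protein Tomm40, for which the genome also holds a related gene, Tomm40l. Tomm40 had 156, 184 and 164 CPM in the wild-type mice and 130, 97.5 and 131 CPM in the KO mice. Tomm40l had 74.8, 69.8 and 77.3 CPM in the wild-type mice and 33.3, 33.2 and 37.5 CPM in the KO mice. Neither overlapped, and Tomm40l had a log2 fold change of -1.09 (SE 0.11, adjusted p = 7.83e-05 from edgeR) against -0.49 for Tomm40, whose call was lost under quantile normalization (-0.31), with library size alone (-0.069) and without wild-type replicate 2 (-0.44). Within each mouse, the ratio of Tomm40l to Tomm40 counts was 0.480, 0.380 and 0.472 in wild-type and 0.257, 0.341 and 0.286 in KO BAT, so every KO ratio was below every wild-type ratio. Tomm40l lies on chromosome 1 from 171216011 to 171222514 (minus strand, GENCODE vM21 on GRCm38, the build that the labels name as mm10). The last 500 bases of its transcripts overlap Nr1i3 on the opposite strand, a gene that had under 1 CPM in every mouse.

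The small subunits Tomm5, Tomm6 and Tomm7, which assemble and stabilise the TOM complex, had log2 fold changes of -0.69, -0.86 and -1.02. Tomm7 fell from 579 ± 42.9 to 285 ± 31.3 CPM (SD, n = 3 each). Tomm6 was less even, at 151, 224 and 156 CPM in the KO mice. Near its 3′ end it shares up to 270 bases with Gm21981 on the same strand, and fewer with Usp49 and its own antisense gene. In the SAM complex, the barrel insertase Samm50 had 579, 551 and 606 CPM in the wild-type mice and 293, 267 and 310 CPM in the KO mice. No KO mouse came near the wild-type range, and the log2 fold change was -0.996 (SE 0.11, adjusted p = 0.000104 from edgeR). Its metaxin partners changed less with TMM scaling, but under quantile normalization Mtx3 was at -0.75 and Samm50 at -0.61. Mtx1 had 30.8, 30.0 and 31.8 CPM in the wild-type mice and 23.0, 21.7 and 25.1 CPM in the KO mice, and Mtx3 had 30.1, 29.5 and 28.2 CPM in the wild-type mice and 19.3, 17.1 and 18.3 CPM in the KO mice. These genes were separated by genotype, with log2 fold changes of -0.41 and -0.68, though Mtx1 was at 0.02 with library size alone. Mtx1 did not pass with the muscle covariate (-0.40), nor with wild-type replicate 1 (-0.41) or 2 (-0.44), or among the KO mice replicate 1 (-0.40) or 2 (-0.36), left out. Mtx2, which had at least 101 CPM in every wild-type mouse and at most 74.5 in every KO mouse, had a log2 fold change of -0.65.

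Tomm34, despite its name, is a cytosolic co-chaperone that binds Hsp70 and Hsp90, and it was the only import gene here that passed the threshold in neither direction. It had 23.0, 18.02 and 19.4 CPM in the wild-type mice and 22.5, 22.1 and 24.5 CPM in the KO mice, so the groups overlapped. The log2 fold change was 0.20, with a 95% interval from -0.13 to 0.52 (adjusted p = 0.302 from edgeR), and it passed the threshold as higher with library size alone (0.62, adjusted p = 0.00585).

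In the intermembrane space, 7 of 7 genes were lower, with a median log2 fold change of -0.75. The small TIM chaperones escort hydrophobic carriers and barrels across this space, Timm9 with Timm10 and Timm8a1 or Timm8b with Timm13. Timm13 and Timm9 had the lowest log2 fold changes here, with Timm13 the lower with TMM and Timm9 under quantile normalization (-0.79 for Timm13 and -0.85 for Timm9). Timm13 had 231, 234 and 292 CPM in the wild-type mice and 122, 116 and 130 CPM in the KO mice. The wild-type mice spread more than the KO mice, all of which were well below them, and the log2 fold change was -1.04 (SE 0.12, adjusted p = 0.00016 from edgeR). Timm9 fell from 159 ± 12.8 to 79.0 ± 15.3 CPM (SD, n = 3 each), a log2 fold change of -1.01, and its partner Timm10 fell from 91.0 ± 3.29 to 60.2 ± 6.01 CPM (SD, n = 3 each), a log2 fold change of -0.59. Timm8b had 312, 269 and 278 CPM in the wild-type mice and 160, 159 and 164 CPM in the KO mice, and Timm8a1, an X-linked gene, had 53.1, 55.7 and 48.8 CPM in the wild-type mice and 40.5, 30.6 and 36.2 CPM in the KO mice. Both were separated by genotype, with log2 fold changes of -0.83 and -0.55. The disulfide relay consists of Chchd4, the import receptor and oxidoreductase of this space, and Gfer, the sulfhydryl oxidase that recharges it. Chchd4 fell from 79.4 ± 8.88 to 47.2 ± 3.52 CPM (SD, n = 3 each). Gfer had 63.2, 54.8 and 49.2 CPM in the wild-type mice and 43.4, 40.2 and 41.0 CPM in the KO mice, the smallest change of this compartment. Its log2 fold change was -0.42 (SE 0.13, adjusted p = 0.0227 from edgeR), a call lost under quantile normalization (-0.32), with library size alone (-0.0032), with the muscle covariate (-0.39), and with wild-type replicate 1 (-0.33) or, among the KO mice, replicate 2 (-0.40) or 3 (-0.41) left out.

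At the inner membrane, 10 of 11 genes were lower and 1 was higher, with a median log2 fold change of -0.83. Timm23, the channel protein of the presequence route, was the most affected of them. It had 88.7, 96.8 and 89.7 CPM in the wild-type mice and 40.2, 37.7 and 39.2 CPM in the KO mice. Values within a genotype were tight, the KO level was 42.6% of wild type, and the log2 fold change of -1.23 (SE 0.10) had the lowest adjusted p of the 35 genes, 2.58e-05 from edgeR. Timm23 lies on chromosome 14 from 32180162 to 32201898 (minus strand, GRCm38). Timm50, the receptor that hands presequences from TOM to the channel, fell from 59.6 ± 2.59 to 33.0 ± 3.68 CPM, and Timm21, which links TIM23 to TOM, fell from 38.5 ± 2.09 to 20.9 ± 2.43 CPM (SD, n = 3 each). The channel partner Timm17 is encoded by a pair of genes. Timm17a had 171, 201 and 176 CPM in the wild-type mice and 119, 98.1 and 131 CPM in the KO mice. Timm17b, on the X chromosome, had 61.1, 59.6 and 65.7 CPM in the wild-type mice and 44.8, 47.1 and 49.5 CPM in the KO mice. Each was separated by genotype with TMM scaling, with log2 fold changes of -0.65 and -0.40, and Timm17b was at 0.02 with library size alone. The call for Timm17b was also lost under quantile normalization (-0.29), with the muscle covariate (-0.36) and without Letmd1 KO replicate 1 (-0.36). Timm22, the channel of the carrier route, had 150, 128 and 199 CPM in the wild-type mice and 91.2, 87.3 and 89.7 CPM in the KO mice. The wild-type mice were spread and the KO mice were not, and the log2 fold change was -0.83 (SE 0.15, adjusted p = 0.00212 from edgeR). With the muscle level as a covariate it was -0.52 and the call was lost (adjusted p = 0.0925 from edgeR).

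The import motor drags presequence proteins into the matrix. Timm44, which anchors the Hsp70 to the channel, fell from 130 ± 5.46 to 63.4 ± 8.60 CPM (SD, n = 3 each), a log2 fold change of -1.03. The J-domain protein Dnajc19 and its regulator Pam16 fell too, with log2 fold changes of -1.07 and -0.77. Grpel1 and Grpel2 encode nucleotide exchange factors of the Hsp70 and moved in opposite directions. Grpel1 had 268, 320 and 296 CPM in the wild-type mice and 178, 157 and 186 CPM in the KO mice. Grpel2 had 20.4, 22.9 and 17.6 CPM in the wild-type mice and 26.5, 26.3 and 33.2 CPM in the KO mice. All KO mice were below all wild-type mice for Grpel1 and above them for Grpel2. The log2 fold change was -0.76 for Grpel1 (SE 0.12, adjusted p = 0.000648 from edgeR) and 0.50 for Grpel2 (SE 0.16, adjusted p = 0.0286 from edgeR). Grpel2 lies on chromosome 18 from 61712424 to 61726325 (minus strand, GRCm38). Its call was not firm: it was lost under quantile normalization (0.44), with the replicate block (0.50, adjusted p = 0.0529 from edgeR), without wild-type replicate 1 (0.50) or 3 (0.40), without KO replicate 3 (0.38), and with the muscle level as a covariate (0.24), while its sign stayed above 0 in each of these. At the 3′ end of Grpel1, 411 of the 500 bases compared overlap Tada2b on the opposite strand, which had a log2 fold change of -0.56.

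Processing of imported precursors involves 2 enzymes with 2 genes each, and 4 of 4 genes were lower, with a median log2 fold change of -0.61. The matrix processing peptidase, which cuts off presequences, consists of Pmpca and the catalytic Pmpcb. Pmpcb had 333, 380 and 381 CPM in the wild-type mice and 224, 240 and 274 CPM in the KO mice, with no overlap. Its log2 fold change was -0.57, and the call was lost under quantile normalization (-0.25) and with library size alone (-0.15). Pmpca fell from 115 ± 7.57 to 75.9 ± 3.25 CPM (SD, n = 3 each), and its 3′ end overlaps Inpp5e on the opposite strand over all 500 bases compared. Inpp5e had a log2 fold change of -0.40. Of the import genes, 11 share bases of their last 500 with another annotated gene, on the opposite strand except for Gm21981 at Tomm6. No source used here says if counting was by strand, so reads of such neighbours cannot be told apart. The inner membrane peptidase, which trims proteins sorted to the intermembrane space, is encoded by Immp1l and Immp2l. Immp1l had 59.9, 63.4 and 54.5 CPM in the wild-type mice and 42.0, 33.6 and 39.2 CPM in the KO mice. Immp2l had 117, 92.8 and 74.4 CPM in the wild-type mice and 24.7, 26.6 and 33.1 CPM in the KO mice. Both were separated by genotype, and for Immp2l the wild-type mice were spread while all lay far above the KO mice. Immp2l changed most of all 35 genes, with a log2 fold change of -1.74 (SE 0.18, adjusted p = 8.28e-05 from edgeR), a level of 29.9% of wild type, and between -1.90 and -1.32 in every alternative tried. Immp2l spans 931499 bases of chromosome 12 (41024090 to 41955588, plus strand, GRCm38) and shares no bases of its last 500 with another annotated gene.

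**Figure D2:**
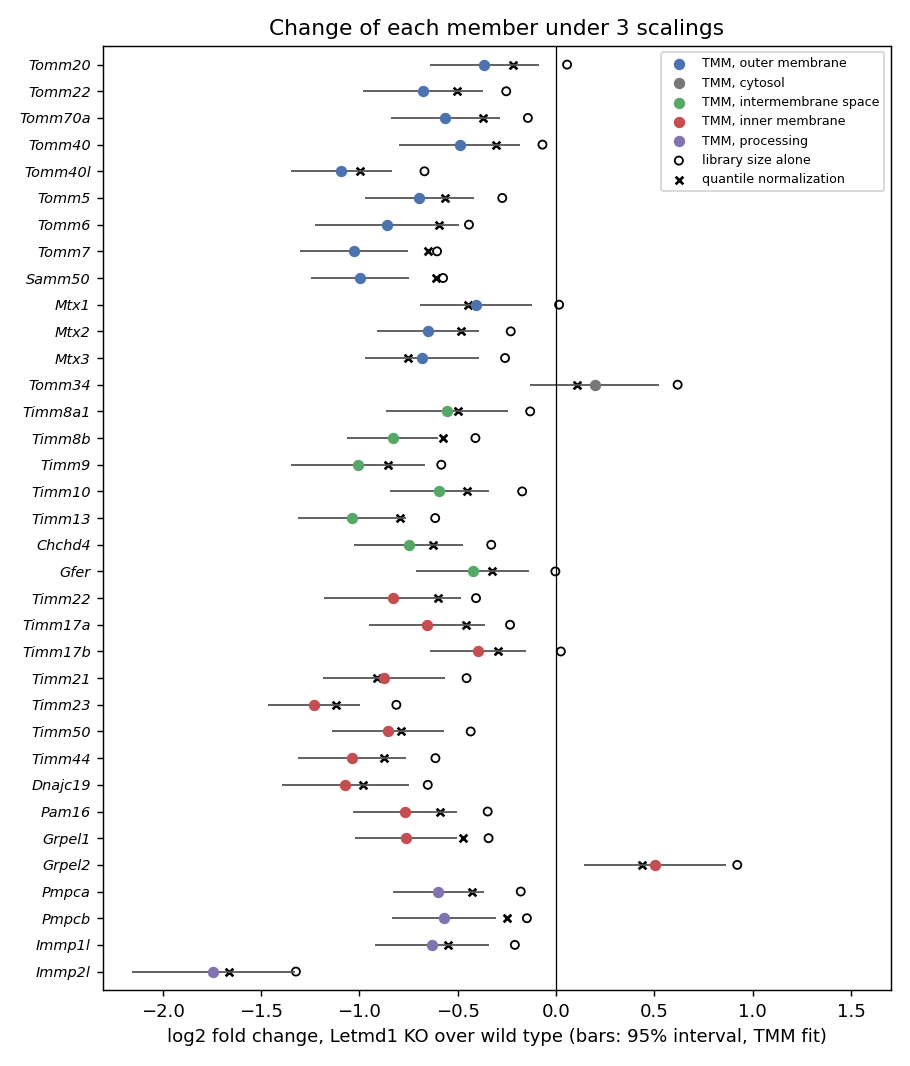
Log2 fold change of each import gene, Letmd1 KO over wild type (filled points coloured by compartment with 95% intervals, TMM scaling; open circles, library size alone; crosses, quantile normalization). With TMM scaling the values ran from -1.74 for Immp2l to 0.50 for Grpel2, and library size alone moved all points to the right, Tomm20, Mtx1 and Timm17b to just above 0.

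Among the compartments, the medians ran from -0.61 for processing through -0.68 for the outer membrane and -0.75 for the intermembrane space to -0.83 for the inner membrane. The ranges overlapped widely, and the difference between compartments was not tested. With library size alone, 4 of 12 outer membrane, 3 of 7 intermembrane space, 8 of 11 inner membrane and 1 of 4 processing genes were lower. That scaling called 1368 of the 12995 genes tested lower. For comparison, 36 genes were taken as complex I subunits by symbol alone (Ndufa, Ndufb, Ndufc, Ndufs or Ndufv with a number). The list was not checked for genes that such names wrongly include, as Ndufa4, or miss, as Ndufab1. These 36 genes had a median of -1.16 and the 76 mitochondrial ribosome proteins tested had -0.66 in the same fit. No test was made between these lists and the import genes. Of the genes with these Nduf symbols, 36 of 36 were lower, as were 66 of the 76 mitochondrial ribosome proteins and 22.3% of all genes tested. At least 2-fold lower were 29 of the 36 Nduf genes, 11 of the 76 ribosome proteins and 8.84% of all genes tested. Of the 35 import genes, 8 were at least 2-fold lower (Tomm7, Tomm40l, Timm9, Timm13, Timm23, Timm44, Dnajc19 and Immp2l). The 8 became 1 with library size alone (Immp2l), 2 under quantile normalization (Timm23 and Immp2l) and 4 among genes with a mean of at least 50 counts. Among all 12995 genes tested, 1149 were at least 2-fold lower in the main fit, 562 with library size alone and 1357 after quantile normalization. With the filter on mean counts, 879 of 10328 were. The share of the import genes was above that of all genes in the main fit and with this filter. It was below that of all genes for quantile normalization and for scaling by library size only.

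**Figure D3:**
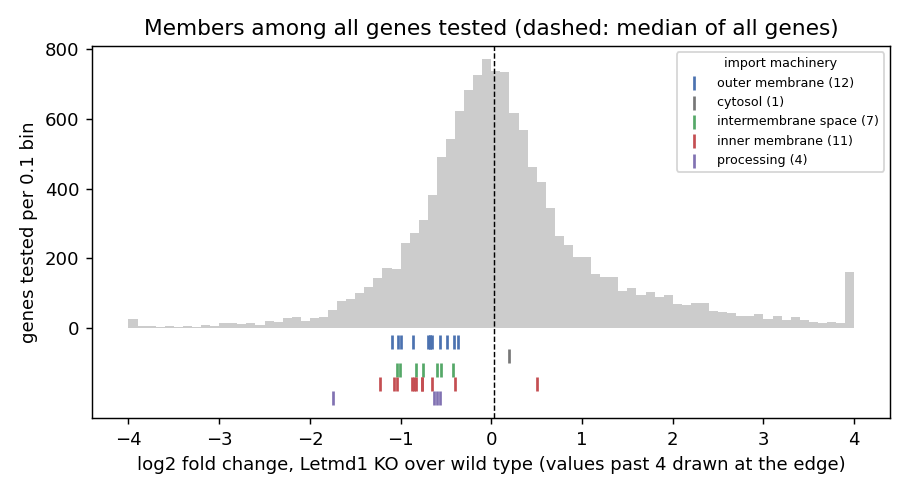
Histogram of the log2 fold changes of the 12995 genes tested (grey, genes per bin of 0.1), with 1 tick below it for each import gene, coloured by compartment. The ticks gather to the left of the median of all genes (dashed, 0.03), apart from Tomm34 at 0.20 and Grpel2 at 0.50; with library size alone Tomm20, Mtx1 and Timm17b lay just above 0.

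Ratios of related genes within a mouse do not depend on how libraries are scaled, and 6 pairs were compared by the log2 ratio of their counts, with 0.5 added to each. Grpel2 over Grpel1 shifted most, from -3.86 ± 0.18 in wild-type to -2.60 ± 0.13 in KO BAT (SD, n = 3 each). Immp2l over Immp1l shifted in the other direction, from 0.65 ± 0.27 to -0.45 ± 0.28 (SD, n = 3 each), so that Immp2l had more counts than Immp1l in every wild-type mouse and fewer in every KO mouse. Tomm40l over Tomm40 changed by -0.59. Timm17a over Timm17b and Mtx3 over Mtx1 changed by -0.26 and -0.27, each with KO mice entirely on one side. For Timm17a over Timm17b, the ratios were 2.79, 3.38 and 2.68 in wild-type and 2.65, 2.08 and 2.65 in KO BAT, and the nearest mice almost touched. The change of this pair was -0.15 without Letmd1 KO replicate 2 and -0.16 without wild-type replicate 2. Timm8a1 over Timm8b changed by 0.27 with overlap between the genotypes, and by 0.17 without Letmd1 KO replicate 1. The two-sided exact permutation test gave p = 0.1 for the 5 pairs without overlap, the smallest value that 3 mice against 3 allow, and 0.2 for Timm8a1 over Timm8b (0.12 and 0.2 after Benjamini-Hochberg adjustment over the 6 pairs). The study's methods count multiple as well as unique alignments, and the part of reads that align to both genes of a pair was not tested.

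**Figure D4:**
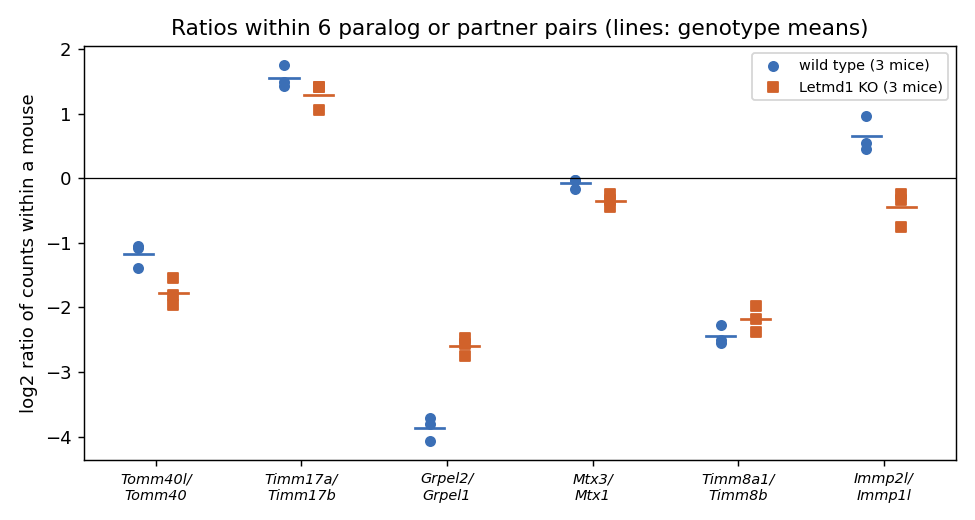
Log2 ratio of the counts of 2 related import genes within each mouse (circles, 3 wild-type mice; squares, 3 Letmd1 KO mice; lines, genotype means). Grpel2/Grpel1 rose from -3.86 to -2.60 and Immp2l/Immp1l fell from 0.65 to -0.45, with no overlap between the genotypes, while Timm8a1/Timm8b overlapped.

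Further genes of the pathway were read from a separate list of 16, of which 15 passed the filter on low counts. The exception was Timm8a2, a relative of Timm8a1 with at most 0.782 CPM in any mouse. Of the 15 genes, 10 were lower and 1 was higher at an adjusted p under 0.05 from edgeR, with a median log2 fold change of -0.82. These were 66.7% lower and 6.67% higher, beside 22.3% and 23.7% of all genes tested, whose median was 0.03. Partners of the translocases were among the lower genes. Romo1 of the TIM23 complex fell from 426 ± 26.3 to 238 ± 11.6 CPM, Timm10b of the carrier route from 128 ± 1.95 to 66.2 ± 3.72 CPM, and the motor protein Dnajc15 from 250.8 ± 17.7 to 128 ± 3.88 CPM (SD, n = 3 each). Timm29, listed in the files under an older symbol, had a log2 fold change of -0.82, and Tomm20l, a relative of Tomm20 whose 3′ end overlaps that of Timm9, had -1.01. Aifm1, the inner membrane protein that holds Chchd4 in place, was among the most changed of the 15. It had 185, 199 and 224 CPM in the wild-type mice and 80.6, 74.2 and 77.5 CPM in the KO mice, a log2 fold change of -1.39 (SE 0.11, adjusted p = 1.96e-05 from edgeR). The outer membrane insertase Mtch2 fell from 1259 ± 86.5 to 494 ± 48.4 CPM (SD, n = 3 each), whereas its relative Mtch1 had a log2 fold change of -0.22 (95% interval -0.49 to 0.05) and turned to above 0 under both other scalings. The inner membrane insertases Oxa1l and Cox18 had log2 fold changes of -0.82 and -0.49. The call for Cox18 was lost with library size alone (-0.067), with the muscle covariate (-0.49), and with wild-type replicate 2 (-0.48) or KO replicate 3 (-0.41) left out. That of Timm29 was lost with library size alone (-0.40), and that of Tomm20l both with it (-0.59) and with the muscle covariate (-0.92).

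The exception in this list was Hspa9, the mitochondrial Hsp70 at the centre of the import motor. It had 1215, 1225 and 1393 CPM in the wild-type mice and 1953, 1500 and 2010 CPM in the KO mice. Every KO mouse was above every wild-type mouse, and the log2 fold change was 0.51 (SE 0.15, adjusted p = 0.0199 from edgeR), 1.39 under quantile normalization and 0.94 with library size alone. It did not pass with wild-type replicate 1 (0.47) or 2 (0.46) left out, without Letmd1 KO replicate 1 (0.46), and with the muscle level as a covariate (0.51). So within the motor, Hspa9 and the exchange factor Grpel2 were higher in KO BAT, and Grpel1, Timm44, Dnajc19, Dnajc15 and Pam16 were lower, which held in direction under all 3 scalings. Of the proteases that act after the matrix processing peptidase, Xpnpep3 was lower (-0.66), a call lost with library size alone (-0.24) and with the muscle covariate (-0.62). Mipep (-0.40, adjusted p = 0.059) and Pitrm1 (0.25, adjusted p = 0.125) did not pass the threshold of edgeR, and neither did Agk of the TIM22 complex (0.24, adjusted p = 0.68), whose sign turned under quantile normalization. Mipep passed as lower under quantile normalization (-0.475) and without KO replicate 3 (-0.52) but was at 0.02 with library size alone, where Pitrm1 passed as higher (0.67).

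Promoters were searched on both strands for motifs that are known in genes of mitochondrial biogenesis, and for a stress motif. The window ran from 250 bases before to 50 after each start in RefSeq (GRCm38.p6). Of the 35 import genes, 31 matched an entry. The other 4 were Tomm40l, Tomm7, Timm21 and Grpel2. CCGGAAG, the core of GABPA sites, was in 12 of 31 import genes (38.7%), beside 19.6% of the genes tested that had an entry and 9.93% of all genes with promoters. AAGATGG, read by YY1, was in 6 of 31 (19.4%, beside 8.3% of tested genes), and AAGGTCA, read by ESRRA, in 3 of 31 (9.68%, beside 3.99%). GCGCANGCG of NRF1 was in 5 of 31 (16.1%, beside 14.9%), and the stress motif TGATGNAA was in 0 of 31 (beside 2.85%). These shares describe letters and show no binding, and no test was made.

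The promoters of the most strongly changed genes with an entry in the inner membrane, intermembrane space and processing groups are shown with matches in capitals. They span the range from several matches to none. By the same rule the outer membrane gene is Samm50, whose promoter holds none of the 5 motifs and is not shown. That of Timm23 (chr14:32201842-32202141, minus strand) holds CCGGAAG in each orientation, from base -47 and base 11 relative to the start, and the second match overlaps AAGGTCA, which begins at base 15. That of Timm13 (chr10:80900920-80901219, minus strand) holds 1 NRF1 match, from base -193. That of Immp2l (chr12:41023840-41024139, plus strand) holds none of the 5 motifs. All are written 5′ to 3′ on the strand of the gene.
Timm23: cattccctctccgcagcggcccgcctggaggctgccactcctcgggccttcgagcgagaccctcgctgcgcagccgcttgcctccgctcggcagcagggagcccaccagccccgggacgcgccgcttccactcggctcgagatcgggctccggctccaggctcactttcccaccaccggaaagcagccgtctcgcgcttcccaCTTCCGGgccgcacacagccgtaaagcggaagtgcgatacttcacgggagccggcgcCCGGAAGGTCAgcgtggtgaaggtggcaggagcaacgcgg
Timm13: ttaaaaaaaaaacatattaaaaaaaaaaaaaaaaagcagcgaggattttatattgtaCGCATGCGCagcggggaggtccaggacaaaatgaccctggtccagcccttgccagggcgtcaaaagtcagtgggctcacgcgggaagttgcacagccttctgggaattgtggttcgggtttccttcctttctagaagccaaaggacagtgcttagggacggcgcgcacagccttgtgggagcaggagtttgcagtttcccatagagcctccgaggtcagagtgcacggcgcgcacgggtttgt
Immp2l: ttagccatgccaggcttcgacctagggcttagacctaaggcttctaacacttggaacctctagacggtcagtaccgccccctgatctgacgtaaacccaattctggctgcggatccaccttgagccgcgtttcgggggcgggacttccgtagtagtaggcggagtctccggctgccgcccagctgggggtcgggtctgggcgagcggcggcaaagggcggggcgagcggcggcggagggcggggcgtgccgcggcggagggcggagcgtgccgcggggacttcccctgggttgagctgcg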

How the data were processed

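Total RNA of the interscapular BAT of 3 wild-type and 3 Letmd1 KO mice was made into 3′ libraries, and the authors aligned the reads with Bowtie2, counted unique and multiple alignments, and deposited raw counts per gene symbol, 1 file per mouse. The submitters' processing notes name mm10 and bedtools. The annotation and the use of strand are not given in the sources used here. The quantile normalization that the study describes is not in the deposited counts, and it was tried as an alternative.

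Counts were tested with edgeR 4.0.16 (R 4.3.3): TMM scaling, filterByExpr at its minimum count (10) and minimum total (15), the quasi-likelihood test, and Benjamini-Hochberg adjustment over the 12995 genes that passed, with calls at 0.05. The test across genes was run on simulated data with 200 changed genes, as many higher as lower. That setting lacks the many changed genes and the TMM factors that differ by genotype here, so it does not check the scaling. Mice of 1 genotype were not duplicate libraries (chi-square over degrees of freedom 12.1 to 37.0). Groups came from the labels, which give no litters, so p-values measure the spread between these mice. All 35 import genes were named. The genes and the other lists were chosen with earlier results of these data known. Pairs of related genes were compared with a two-sided exact permutation test. Alternatives were library size alone, quantile normalization with limma 3.58.1, DESeq2 1.42.0, other filters, a replicate block, a muscle covariate and leaving out each mouse. Gene positions are from GENCODE vM21 (GRCm38) and promoters from RefSeq (GRCm38.p6).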

Additional observations from a re-analysis of the deposited data

How the results depend on the processing

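The count of lower import genes was 33 and became 16 with library size alone and 8 when at least a 2-fold change was also asked for. It was 28 to 33 in the other alternatives, 30 to 33 with 1 mouse left out. The 1 higher gene became 2 with library size alone, and it became 0 under quantile normalization, with the replicate block, with the muscle covariate or at 2-fold, and 0 to 1 with 1 mouse left out. Of the further import genes, 6 were lower and 2 were higher with library size alone, 0 were higher with the muscle covariate, and 0 to 1 were higher with 1 mouse left out. Library size alone called 1368 of all 12995 genes lower and 5899 higher. Scaled by library size only, log2 medians were -0.27 over all 35, -0.26 at the outer membrane, -0.33 in the intermembrane space, -0.41 at the inner membrane and -0.19 for processing. Under quantile normalization these medians were -0.57, -0.53, -0.57, -0.60 and -0.49. With the muscle covariate they were -0.75 over all 35, -0.77 at the outer membrane, -0.75 in the intermembrane space, -0.93 at the inner membrane and -0.74 for processing. In that fit the outer membrane median was thus lower than that of the intermembrane space, unlike in the main fit. The outer membrane median was -0.62 with a mean of at least 50 counts. With 1 mouse left out they ran from -0.75 to -0.64 over all 35, from -0.72 to -0.59 at the outer membrane, from -0.85 to -0.69 in the intermembrane space, from -0.88 to -0.77 at the inner membrane and from -0.66 to -0.57 for processing. Signs turned with library size alone for Tomm20 (0.056), Mtx1 (0.016), Timm17b (0.025), Mipep (0.024) and Mtch1 (0.20), under quantile normalization for Mtch1 (0.11) and Agk (-0.16), and for Agk also without wild-type replicate 1 (-0.096) or Letmd1 KO replicate 2 (-0.068), with values from -0.096 to 0.60 when 1 mouse was left out. The cause was not tested.

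The replicate numbers, those of the sample titles (file names carry other numbers), did not pair the mice, with correlations of deviations of 0.069, -0.11 and -0.087 for equal numbers. With the replicate block 33 import genes were lower, and the call for Grpel2 was the only one of the 35 that was lost. With 3 mice a genotype, the exact test of the pairs cannot go below 0.1.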
